A study of Mus musculus with 15 samples.

Results

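The serpins are the 62 protein-coding genes of mouse chromosomes 1 to 19 whose symbol starts with Serpin, out of 20665 protein-coding genes on those chromosomes. They comprised 23 Serpina genes, 28 Serpinb genes and 11 genes of other clades. From textbook knowledge of where their products are found, 16 were listed as liver-expressed, 12 as broadly expressed or inducible and 33 as silent in liver. Serpina3c stood in no list. No RNA was measured in the series, so these lists say where a gene is known to be used and not what these livers transcribed.

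The study profiled 3 histone H3 marks by ChIP-seq, in which antibody-bound nucleosomes are sequenced, in livers of C57Bl/6 mice aged 8 to 12 weeks and fed a normal diet. Wild-type (WT) livers were set against Uhrf1hepKO livers, a name read here as deletion of Uhrf1, a maintenance factor of DNA methylation, in hepatocytes. At baseline, H3K4me3 was profiled in 2 WT and 2 Uhrf1hepKO libraries, H3K27me3 in 2 WT and 1 Uhrf1hepKO libraries, and H3K9me3 in 1 library of each genotype. H3K27me3 was also profiled in WT liver at 30, 40 and 96 h of regeneration, 1 library a time, with WT replicate 2 labelled as 0 h. The labels put WT replicate 2 and the 3 later H3K27me3 libraries in round 3 and the second H3K4me3 replicates and both H3K9me3 libraries in round 2, and name no round for the others. The labels give no Cre line or promoter for the deletion, no way of starting regeneration, and no statement that replicates were separate animals. Whole liver also holds cells other than hepatocytes, which a hepatocyte deletion would leave intact.

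Serpins are proteins that mostly trap and inactivate serine proteases by a large change of shape, although some members carry hormones or assist protein folding. Hepatocytes secrete many Serpina proteins and the inhibitors of clotting, fibrinolysis and complement, whereas Serpinb proteins mostly stay inside cells and include members of skin and immune cells. H3K4me3 marks starts of transcribed genes, H3K27me3 is laid by Polycomb over repressed genes, and H3K9me3 is typical of heterochromatin.

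A gene start was called marked by H3K4me3 or H3K27me3 where any region of the authors' lists overlapped the 2001 bp window of 1 kb either side of the start. Annotated starts were at hand for 53 members. For 7 members the gene end with more H3K4me3 was taken, and for Serpinb13 and Serpinb1a both ends counted. No test was made on these lists of called regions, with 1 or 2 libraries a group, and counts of members stand beside the share of all genes called in the same way.

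The lists differed in size. The first H3K4me3 replicates held 70687 and 71868 peaks and the second 24917 and 26206, and the H3K27me3 lists held 10473 to 13942 islands with 12757716 to 21724770 reads. The antibody tag of the second H3K4me3 replicates names H3K9me3, against their titles, and they were grouped by title; 95.9% and 92.3% of their peak length lay in first-replicate peaks of the same genotype and 0.456% and 0.438% in H3K9me3 peaks. Of 9 hepatocyte marker genes, 8 or 9 were marked by H3K4me3 in each library and 0 by H3K27me3. At the low-coordinate end of Uhrf1 itself, 1283 and 743 bp were in H3K4me3 peaks in WT and 874 and 996 bp in Uhrf1hepKO, which does not check the deletion, since the deleted part is not given in the sources used here.

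The 5 alpha-1-antitrypsin genes Serpina1a to Serpina1e and their silent neighbour Serpina1f lie in 1 stretch of chromosome 12 and carried different marks. H3K4me3 lay at the first 5 and H3K27me3 at Serpina1f, and the sequences just upstream of their starts are shown to set these paralogs side by side. Each run is the 100 bases before the RefSeq start, 5′ to 3′ on the minus strand of GRCm38.p6, and capitals mark GTTAAT, a core of the recognition site of the hepatocyte factor HNF1. The runs lie at chr12:103863620-103863719 (Serpina1a), chr12:103738190-103738289 (Serpina1b), chr12:103904951-103905050 (Serpina1c), chr12:103773634-103773733 (Serpina1d), chr12:103956898-103956997 (Serpina1e) and chr12:103695530-103695629 (Serpina1f).
Serpina1a: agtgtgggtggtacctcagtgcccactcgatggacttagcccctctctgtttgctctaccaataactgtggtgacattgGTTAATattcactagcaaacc
Serpina1b: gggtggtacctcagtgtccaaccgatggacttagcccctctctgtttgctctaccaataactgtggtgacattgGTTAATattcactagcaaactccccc
Serpina1c: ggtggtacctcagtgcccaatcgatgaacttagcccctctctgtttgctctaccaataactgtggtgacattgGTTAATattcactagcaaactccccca
Serpina1d: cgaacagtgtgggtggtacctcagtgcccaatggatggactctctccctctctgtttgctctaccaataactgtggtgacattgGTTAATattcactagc
Serpina1e: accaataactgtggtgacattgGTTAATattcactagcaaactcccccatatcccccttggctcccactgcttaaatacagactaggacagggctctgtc
Serpina1f: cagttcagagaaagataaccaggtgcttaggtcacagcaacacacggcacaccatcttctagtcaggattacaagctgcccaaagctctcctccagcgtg

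The match began 16 to 27 bases before the start in Serpina1a to Serpina1d and 78 bases before it in Serpina1e, whose RefSeq start lies further downstream in the shared sequence. Serpina1f held no match in these letters. Over the 300 bases from 250 before to 50 after the start, aligned identity ran from 77.3% to 93.0% among the 10 pairs of Serpina1a to Serpina1e. It ran from 55.7% to 61.7% between Serpina1f and those 5 genes. A stretch of 75 identical bases was shared by 4 of the 10 pairs, so short reads there could fit more than 1 copy, and how the authors placed such reads is not given in the sources used here. Values of the 5 copies are therefore uncertain as separate genes.

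H3K4me3 lay at the start of all 16 liver-expressed members in all 4 libraries; for 5 of them the start was the end with more H3K4me3, and the other 11 had annotated starts. Over all members, 29 starts were marked in WT replicate 1, 28 in Uhrf1hepKO replicate 1, 25 in WT replicate 2 and 26 in Uhrf1hepKO replicate 2. The corresponding shares of all genes were 64.9%, 64.0%, 58.4% and 61.1%, against 46.8%, 45.2%, 40.3% and 41.9% of members. In all 4 libraries 25 members were marked, which is 40.3% of members against 57.6% of all genes. In none of the 4 libraries were 33 members marked, which is 53.2% against 33.5% of all genes. These were 30 silent members, 2 broad or inducible members and Serpina3c. The serpins thus divided by list: the liver-expressed members were all marked, 9 of the 12 broad or inducible members were marked in all 4 libraries, and 30 of the 33 silent members were marked in none. The lists were chosen with earlier results of these data known, so this division is a description and not an independent check.

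**Figure D1:**
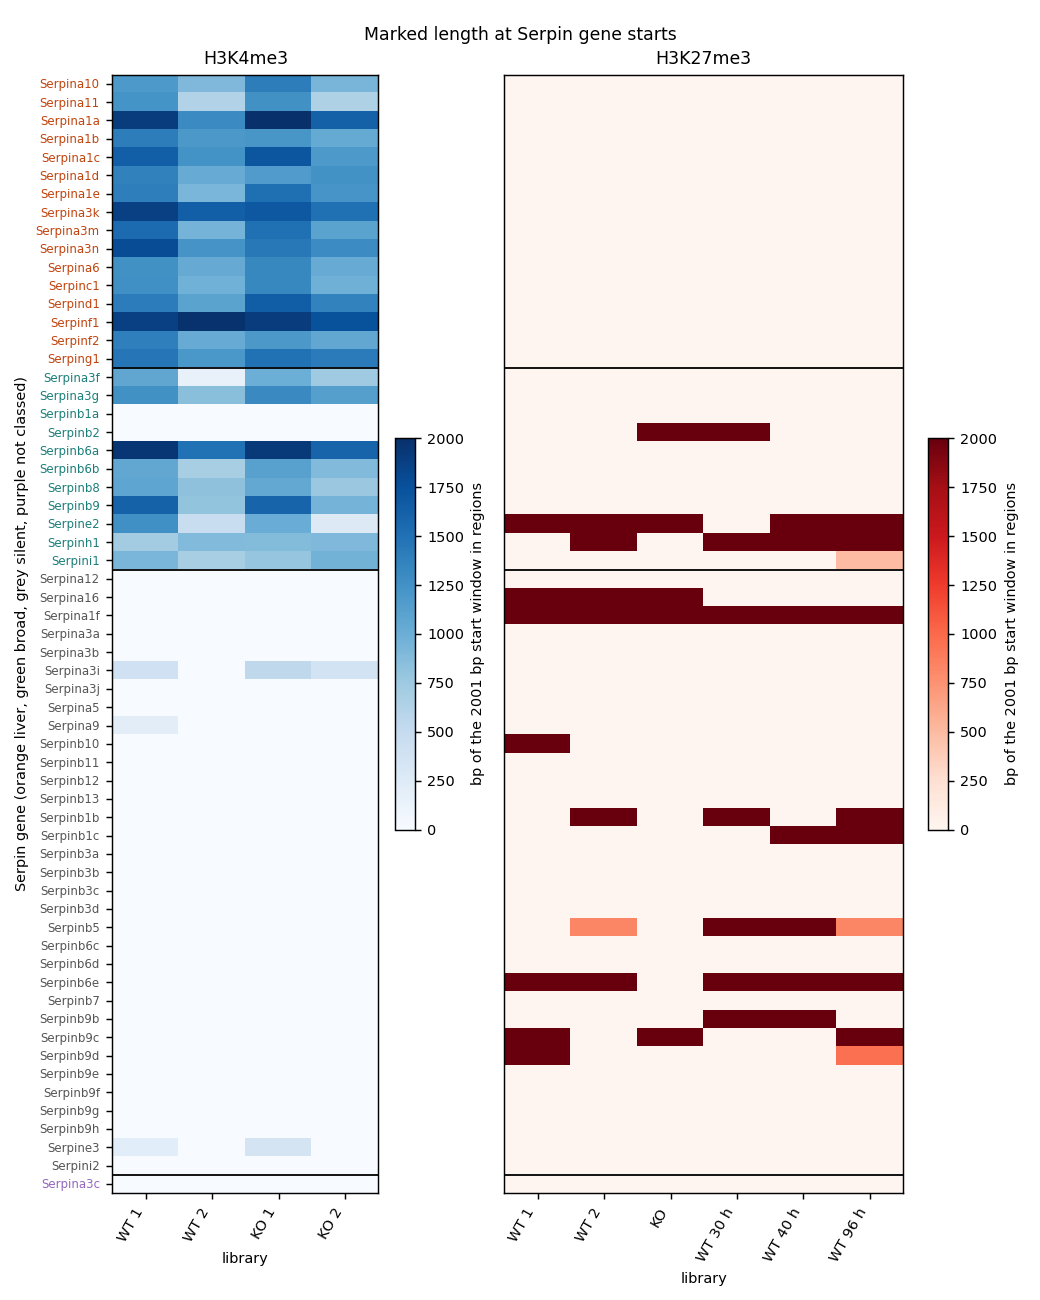
Length of the 2001 bp start window in called regions for 61 serpins (vertical) in each library (horizontal), in bp, for H3K4me3 on the left and H3K27me3 on the right. Black lines part the liver-expressed, broad or inducible, silent and unclassed members; the 16 liver-expressed members are filled in all 4 H3K4me3 libraries and empty in all 6 H3K27me3 libraries.

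Among the secreted liver serpins, the alpha-1-antitrypsin gene Serpina1a had 1907 and 1298 bp of its start window in H3K4me3 peaks in WT replicates 1 and 2, and 2001 and 1620 bp in Uhrf1hepKO. Serpina3k, the gene of the protease inhibitor contrapsin, had 1869 and 1637 bp in WT and 1694 and 1505 bp in Uhrf1hepKO. Serpinc1, the gene of antithrombin, had 1264 and 976 bp in WT and 1322 and 978 bp in Uhrf1hepKO. The second replicate was lower than the first in each genotype of these genes, and the pooled WT and Uhrf1hepKO values overlapped. Within each replicate, Serpina1a and Serpinc1 had more length in Uhrf1hepKO, Serpinc1 only slightly in replicate 2, and Serpina3k had more in WT.

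Among the liver-expressed members, the peak folds, which are the authors' enrichment values, were highest in WT replicate 1 at Serpind1, which encodes heparin cofactor II, and Serpinf2, which encodes alpha-2-antiplasmin, both 22.2. Serpina1b followed at 21.6, Serpina10, the gene of an inhibitor that acts with protein Z, at 21.3, and Serpina1a and Serpina1d at 21.0. The median of the 16 liver-expressed members was 19.8 in WT replicate 1, equal to the 19.8 of all marked genes. In Uhrf1hepKO replicate 1 it was 17.8 against 17.6. In the second replicates it was lower than that of all marked genes, 42.3 against 47.0 in WT and 48.8 against 64.2 in Uhrf1hepKO.

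The length of H3K4me3 over the gene bodies set the liver-expressed members apart more than the fold did. The median share of the gene body in peaks was 56.7% in WT replicate 1 and 26% in WT replicate 2, and 50.9% and 30.5% in Uhrf1hepKO replicates 1 and 2. Marked genes of 5 to 25 kb, the size range that holds the liver-expressed members, had medians of 10.8%, 7.5%, 10.5% and 8.2% in the same order. The liver-expressed members ran from 7103 bp (Serpina3m) to 23961 bp (Serpinc1). Lengths were not matched further, and the part of gene length in the difference was not tested. The broad or inducible members that were marked had medians of 7.27%, 3.82%, 6.8% and 4.56%.

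Serpina3k had the highest share, 81.3% and 61.8% of its 7254 bp in WT and 81.0% and 64.1% in Uhrf1hepKO. Serpind1 had 75.5% and 33.8% in WT and 74.7% and 38% in Uhrf1hepKO. Serpina1c had 72.8% and 36.7% in WT and 62.8% and 36.7% in Uhrf1hepKO. In each of these genes the first replicates were high in both genotypes and the second replicates low, and Serpina3k lay above all other liver-expressed members in all 4 libraries.

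At the low end stood Serpina11, a liver serpin of little-known function, with 15.4% and 6.42% in WT and 24.1% and 6.6% in Uhrf1hepKO. Serpinf1, which encodes pigment epithelium-derived factor, had 16.8% and 12.3% in WT and 17.4% and 14.4% in Uhrf1hepKO. Serping1, the gene of the complement C1 inhibitor, had 21.6% and 14.5% in WT and 28.2% and 17.3% in Uhrf1hepKO. Of the 16 liver-expressed members, 16 in both first replicates and 15 in both second replicates lay above the median of marked genes of their size range; Serpina11 was the member below it.

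**Figure D2:**
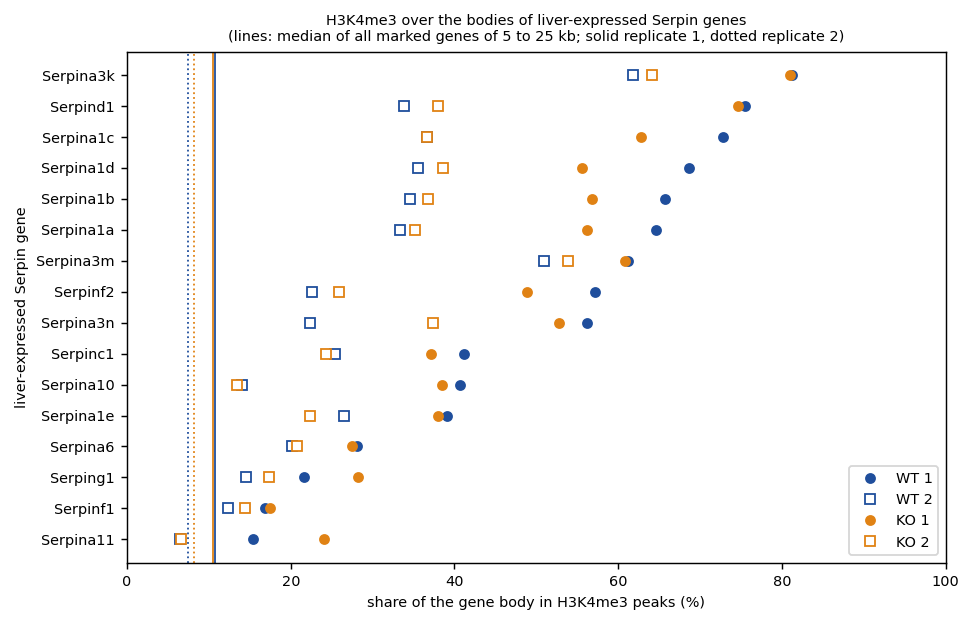
Share of the gene body in H3K4me3 peaks (horizontal, %) for each liver-expressed serpin (vertical), 1 point a library, with WT in blue and Uhrf1hepKO in orange. Vertical lines give the median of all marked genes of 5 to 25 kb, from 7.5% to 10.8%; apart from Serpina11 in both second replicates, every point lies to the right of the line of its own library.

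The peaks reached into the genes rather than upstream. Within 5 kb of the start, the 15 liver-expressed members with a single start had a median of 4345 bp of peaks on the gene side and 718 bp on the upstream side in WT replicate 1. In WT replicate 2 the medians were 2643 and 157 bp. In all 4 libraries 15 of 15 had more length on the gene side, as had 76.8% to 79.4% of all marked genes with a single start. For Serpina10, Serpina6, Serpina3k, Serpina3m and Serping1 the start is the end with more H3K4me3, so their side follows from that choice, and the 10 members with an annotated start gave 10 of 10.

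The genotypes differed in opposite directions in the replicates. In replicate 1, 13 of 16 liver-expressed members had the higher gene-body share in WT, with a median Uhrf1hepKO minus WT difference of -1.65 percentage points. In replicate 2, 12 of 16 had the higher share in Uhrf1hepKO, 3 in WT and Serpina1c was equal to the printed digit, with a median difference of 2.15 points. All 5 of Serpina1a to Serpina1e were lower in Uhrf1hepKO in replicate 1, by 1.1 to 13 points, and in replicate 2 3 of 5 were higher there, 1 lower and 1 equal. Only Serpina11, Serpinf1 and Serping1 were higher in Uhrf1hepKO in both replicates, and only Serpina10, Serpina1e and Serpinc1 were higher in WT in both.

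At the starts, 10 of 16 liver-expressed members were wider in Uhrf1hepKO in replicate 1 and 11 of 16 in replicate 2. In both replicates 7 of 16 were wider in Uhrf1hepKO and 2 of 16 in WT, against 29.9% and 10.7% of the genes marked in all 4 libraries. Among those 11908 genes, 36.9% were wider in Uhrf1hepKO in replicate 1 and 79.3% in replicate 2. The median difference of the liver-expressed members was 38 bp in replicate 1 and 35.5 bp in replicate 2. For all those genes it was -16.5 bp and 76 bp. No member gained H3K4me3 in both Uhrf1hepKO libraries and neither WT library, against 0.111% of all genes, and no member lost it in the reverse sense, against 0.0145%. Without WT replicate 1, Serpina3i counted as gained, and without WT replicate 2, Serpina9 counted as lost.

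The broad or inducible members were marked more narrowly. Serpini1, which encodes neuroserpin, had the highest fold of this list in WT replicate 1, 22.2, followed by Serpinb6a at 19, Serpinb9 at 17.2 and Serpinb6b at 11.7. Serpinb9, which encodes an inhibitor of granzyme B, had 1613 and 799 bp of its start window in peaks in WT and 1598 and 953 bp in Uhrf1hepKO. Serpina3f, an inhibitor gene of the Serpina3 group, had 1067 and 143 bp in WT and 997 and 736 bp in Uhrf1hepKO. At both genes the second replicates were lower than the first in each genotype.

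Serpinb1a, which encodes an inhibitor of neutrophil elastase, and Serpinb2, the gene of plasminogen activator inhibitor 2, were the members of this list marked by H3K4me3 in no library. Of 4 macrophage marker genes, 1 and 0 were marked in the first replicates and 4 and 4 in the second. Markers of other cells did not rise in this way. All 5 endothelial genes were marked in every library. Of 5 stellate and fibroblast genes, 4 and 3 were marked in the first replicates and 4 and 5 in the second. Of 4 bile duct genes these counts were 3 and 3, then 2 and 2. Of 4 lymphocyte genes they were 1 and 1, then 1 and 2. The part of other cells in the serpin values was not tested. In bulk liver, fewer cells with a mark and less mark in each cell cannot be told apart.

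H3K4me3 touched the starts of 3 silent members. Serpina3i had 400 bp in WT replicate 1, none in WT replicate 2, and 543 and 374 bp in Uhrf1hepKO. Serpine3 had 218 bp in WT and 348 bp in Uhrf1hepKO in the first replicates and none in the second, a pattern shown by 3.42% of all genes. Serpina9, a gene known from germinal centre B cells, had 208 bp in WT replicate 1 alone, at a gene end that was taken as its start because of that peak.

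The silent member Serpina12, which encodes the adipose hormone vaspin, was unmarked at its start yet held H3K4me3 inside the gene in all 4 libraries. The longest peak was 1802 bp in WT replicate 1, at chr12:104034022-104035823, 8620 bp from the annotated start, with a fold of 12.5. In WT replicate 2 it was 1464 bp with a fold of 7.34, and in Uhrf1hepKO replicate 2 it was 1835 bp with a fold of 9.79. In Uhrf1hepKO replicate 1 the same stretch was broken into shorter peaks, the longest 643 bp. The long noncoding RNA gene Gm31271, at 104032325 to 104037795, overlaps Serpina12 there, so the peaks cannot be given to either gene.

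The starts of the liver-expressed members were poor in CG dinucleotides, the feature of most H3K4me3-marked starts. In the 300 bases around the start their 12 promoters, of 11 genes with a RefSeq entry, held a median of 4 CG and at most 6. All promoters in the table had a median of 14, those of genes marked in all 4 libraries 21, and those of genes marked in none 3. By CG alone the liver-expressed members resembled unmarked genes. Low CG was shared by most serpins: silent promoters had a median of 2 CG and broad or inducible ones 5. Fewer than 10 CG were held by 33 of 35 silent and 9 of 13 broad or inducible promoters. Low CG thus did not set the liver-expressed members apart from the other serpins. Of all 8451 promoters with fewer than 10 CG, 29.9% belonged to genes marked in all 4 libraries, and all 12 of these liver promoters did.

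**Figure D3:**
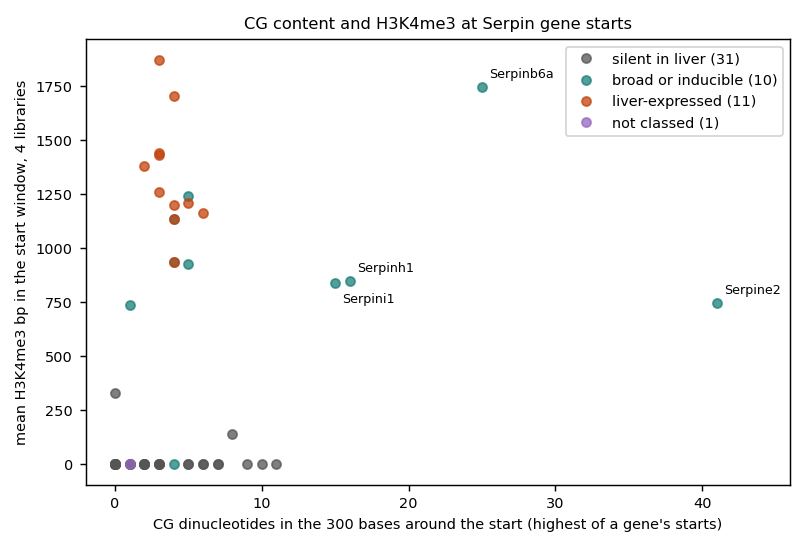
Mean H3K4me3 length in the start window over the 4 libraries (vertical, bp) against the number of CG dinucleotides in the 300 bases around the start (horizontal), 1 point for each serpin with a RefSeq promoter, the highest of its starts taken. The 11 liver-expressed members lie at 2 to 6 CG with high H3K4me3, and Serpine2 lies far to the right at 41 CG.

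The HNF1 core GTTAAT, searched on both strands, lay in 5 of the 12 liver promoters, all of Serpina1a to Serpina1e, in 3 of 35 promoters of silent members and in 6.23% of all 20085 promoters. CCAAT lay in 8 of the 12 liver promoters, in 10 of 35 silent and 3 of 13 broad or inducible promoters, and in 38.1% of all promoters. The 8 were those of Serpina1a to Serpina1e, that of Serpinf1 and both promoters of Serpina11, which overlap each other. TATAAA lay in none of the 12 liver promoters, in 12 of the 35 silent promoters and in 12.7% of all promoters. The 5 Serpina1 promoters share descent and are not independent cases. Serpinb3a, a silent gene of the squamous cell carcinoma antigen group on chromosome 1, is shown as an unmarked start with TATAAA, here in capitals in the 100 bases before its start on the minus strand, at chr1:107052304-107052403.
Serpinb3a: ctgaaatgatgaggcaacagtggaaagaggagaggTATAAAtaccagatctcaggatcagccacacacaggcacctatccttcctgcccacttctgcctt

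Serpine2, the gene of protease nexin 1, was the member at the other end of CG content, with 41 CG in its 300 bases. It is shown because it was the serpin that carried both H3K4me3 and H3K27me3 in both genotypes. The run is the 250 bases before the start on the minus strand, at chr1:79858666-79858915, and capitals mark its 34 CG.
Serpine2: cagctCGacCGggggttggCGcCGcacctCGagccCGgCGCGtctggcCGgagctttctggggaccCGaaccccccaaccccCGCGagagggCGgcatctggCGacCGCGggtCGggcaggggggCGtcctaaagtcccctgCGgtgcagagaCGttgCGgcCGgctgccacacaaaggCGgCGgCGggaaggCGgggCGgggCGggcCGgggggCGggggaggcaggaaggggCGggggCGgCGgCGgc

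Serpine2 had 1259 and 468 bp of its window in H3K4me3 peaks in WT and 1011 and 252 bp in Uhrf1hepKO. Its start lay in H3K27me3 islands of 21 kb with a fold of 1.74 in WT replicate 1, 34 kb and 1.46 in WT replicate 2, and 56 kb and 1.52 in Uhrf1hepKO. The second H3K4me3 replicates were low and the pooled values of both genotypes overlapped. Within each replicate the H3K4me3 length was lower in Uhrf1hepKO. With WT replicate 1 for H3K27me3, both marks lay at 1 member start in WT, against 6.18% of all genes, and at 1 in Uhrf1hepKO, against 7.39%. With WT replicate 2 there were 2 in WT, the other being Serpinh1, which encodes the collagen chaperone HSP47. The share of all genes with both marks was not computed for that replicate. Its H3K27me3 list marked 28.5% of all genes, against 23.0% for WT replicate 1.

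Members that lay within 500 kb of each other in runs of at least 4 formed 3 clusters, which held 51 of the 62 members. The Serpina cluster, chr12:103616675-104414334, held all 23 Serpina genes from Serpina10 to Serpina3n. A Serpinb cluster at chr1:106861175-107608978 held 12 genes from Serpinb5 to Serpinb8. Another at chr13:32842092-34002794 held 16 from Serpinb1a to Serpinb6a, and the unrelated genes Nqo2 and Ripk1 overlap its far end. All coordinates are of the mm10 build and 1-based.

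The Serpina cluster was rich in H3K4me3 and both Serpinb clusters were poor in it. Peaks covered 11.5% of the Serpina cluster in WT replicate 1, 5.43% in WT replicate 2, and 11% and 5.95% in Uhrf1hepKO. The same lists covered 1.83%, 0.859%, 1.81% and 1.01% of chromosomes 1 to 19. The 500 kb on either side of the cluster had 0.709% to 2.94%, below the cluster in every library. The 500 kb at the high-coordinate side of the chromosome 1 Serpinb cluster were also poor, at 0.0% to 0.303%. At the low-coordinate side of the chromosome 13 Serpinb cluster the second replicates had less than the cluster, 0.28% in WT and 0.315% in Uhrf1hepKO. The first replicates had more there, 1.48% and 1.24%. The opposite side of each Serpinb cluster had more than the cluster in every library.

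Of the peak length in the Serpina cluster, 56.7% in WT replicate 1 and 77.6% in WT replicate 2 belonged to peaks at member starts, and 56.6% and 79.6% in Uhrf1hepKO. The remainder lay in 67 of 98, 13 of 29, 79 of 108 and 11 of 32 peaks in the same order. Their median fold was 5.25, 6.85, 5.0 and 6.53, below the medians of 11.4, 28.7, 9.73 and 14.1 of the peaks at member starts.

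**Figure D4:**
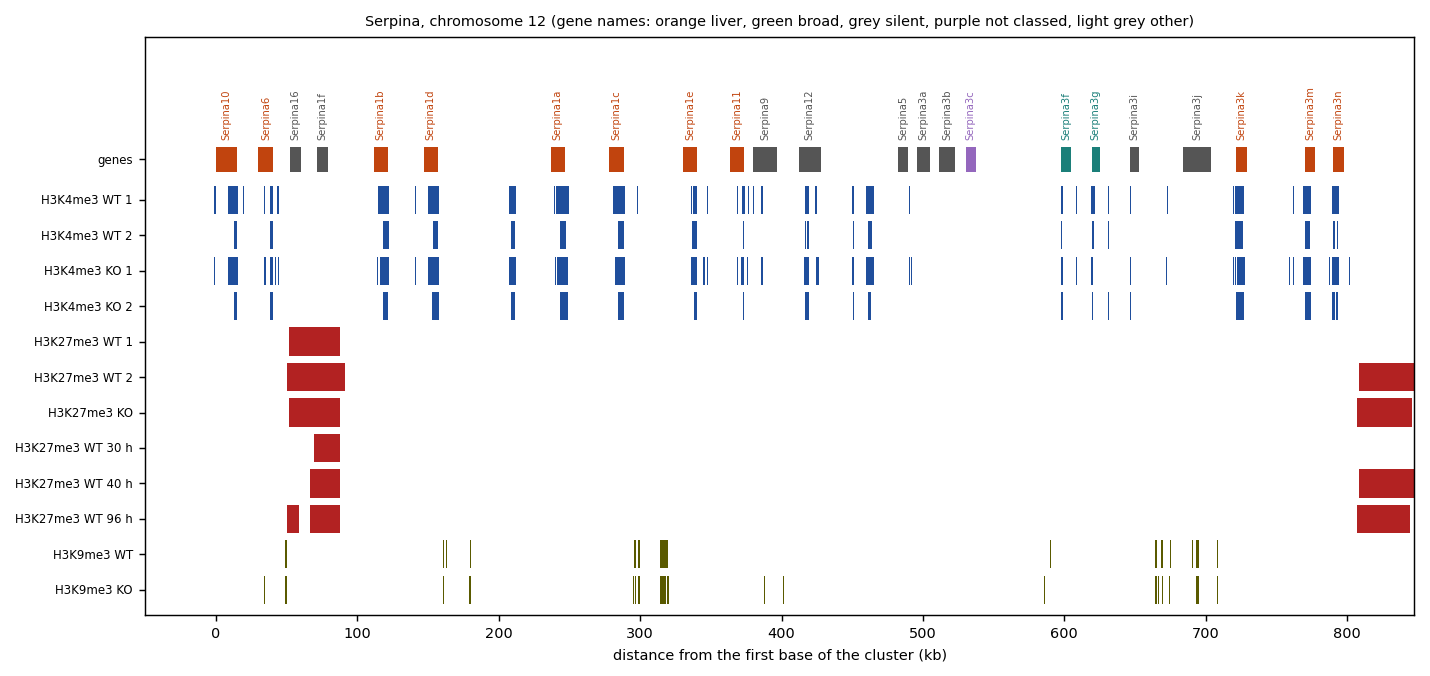
Called regions over the Serpina cluster and 50 kb either side, 1 line a library, against distance from the first base of the cluster (horizontal, kb), with gene bodies above. H3K4me3 (blue) lies over the liver-expressed genes in all 4 libraries, and the H3K27me3 inside the cluster (red) runs over Serpina16 and Serpina1f for 36 to 41 kb in the 3 baseline libraries, over Serpina1f for 18 and 21 kb at 30 and 40 h, and in 2 islands at 96 h.

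H3K27me3 inside the Serpina cluster was a single block over its silent pair Serpina16 and Serpina1f, genes known from reproductive tissue. The island ran over chr12:103668001-103704000, 36 kb, in both WT replicate 1 and Uhrf1hepKO, with 1422 reads and a fold of 1.88 in WT and 1272 reads and a fold of 1.51 in Uhrf1hepKO. The 1312 control reads were the same in both, and in all 411 islands with the same bounds in these lists. In WT replicate 2 it was 41 kb long with a fold of 1.75. The block thus lay over the same genes in both genotypes, between the marked genes Serpina6 and Serpina1b.

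During regeneration the block was shorter, at 18 kb and a fold of 1.43 at 30 h, and 21 kb and 1.59 at 40 h. At 96 h it was in 2 islands, 8 kb with a fold of 2.11 and 21 kb with a fold of 1.67. The islands at 30 and 40 h lay over Serpina1f and not over Serpina16. Serpina1f was the 1 member with H3K27me3 at its start in all 6 libraries, against 10.9% of all genes. H3K27me3 covered 4.51% and 5.14% of the Serpina cluster in WT, 4.51% in Uhrf1hepKO, and 2.26%, 2.63% and 3.64% at 30, 40 and 96 h. These lay below the 15.6% to 20.6% of chromosomes 1 to 19.

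The chromosome 1 Serpinb cluster, which holds Serpinb5, the gene of maspin, and the Serpinb3 genes, had 1 H3K4me3 peak in 3 libraries and 2 in Uhrf1hepKO replicate 1. The shared peak lay at its last gene, Serpinb8, with 1073 and 827 bp of the window in WT and 1052 and 763 bp in Uhrf1hepKO. Peaks covered 0.102% to 0.16% of the cluster. None of 5 keratinocyte marker genes was marked by H3K4me3 in any of the 4 libraries.

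In the chromosome 13 Serpinb cluster the H3K4me3 peaks at member starts lay at Serpinb6b, Serpinb9 and Serpinb6a. Peaks covered 0.936% and 0.537% of it in WT and 0.946% and 0.57% in Uhrf1hepKO. At Serpinb6a, whose product is an intracellular inhibitor, 1954 and 1496 bp of the window lay in peaks in WT and 1929 and 1601 bp in Uhrf1hepKO. These lengths are those of its start at 34002794, which the unrelated gene Ripk1 overlaps, so these peaks cannot be given to either gene. Its other annotated start, at 33936083, lies outside Ripk1 and also had a peak in every H3K4me3 library. Serpinb6b had 1058 and 686 bp in WT and 1115 and 885 bp in Uhrf1hepKO. The first replicates were higher than the second in each genotype.

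**Figure D5:**
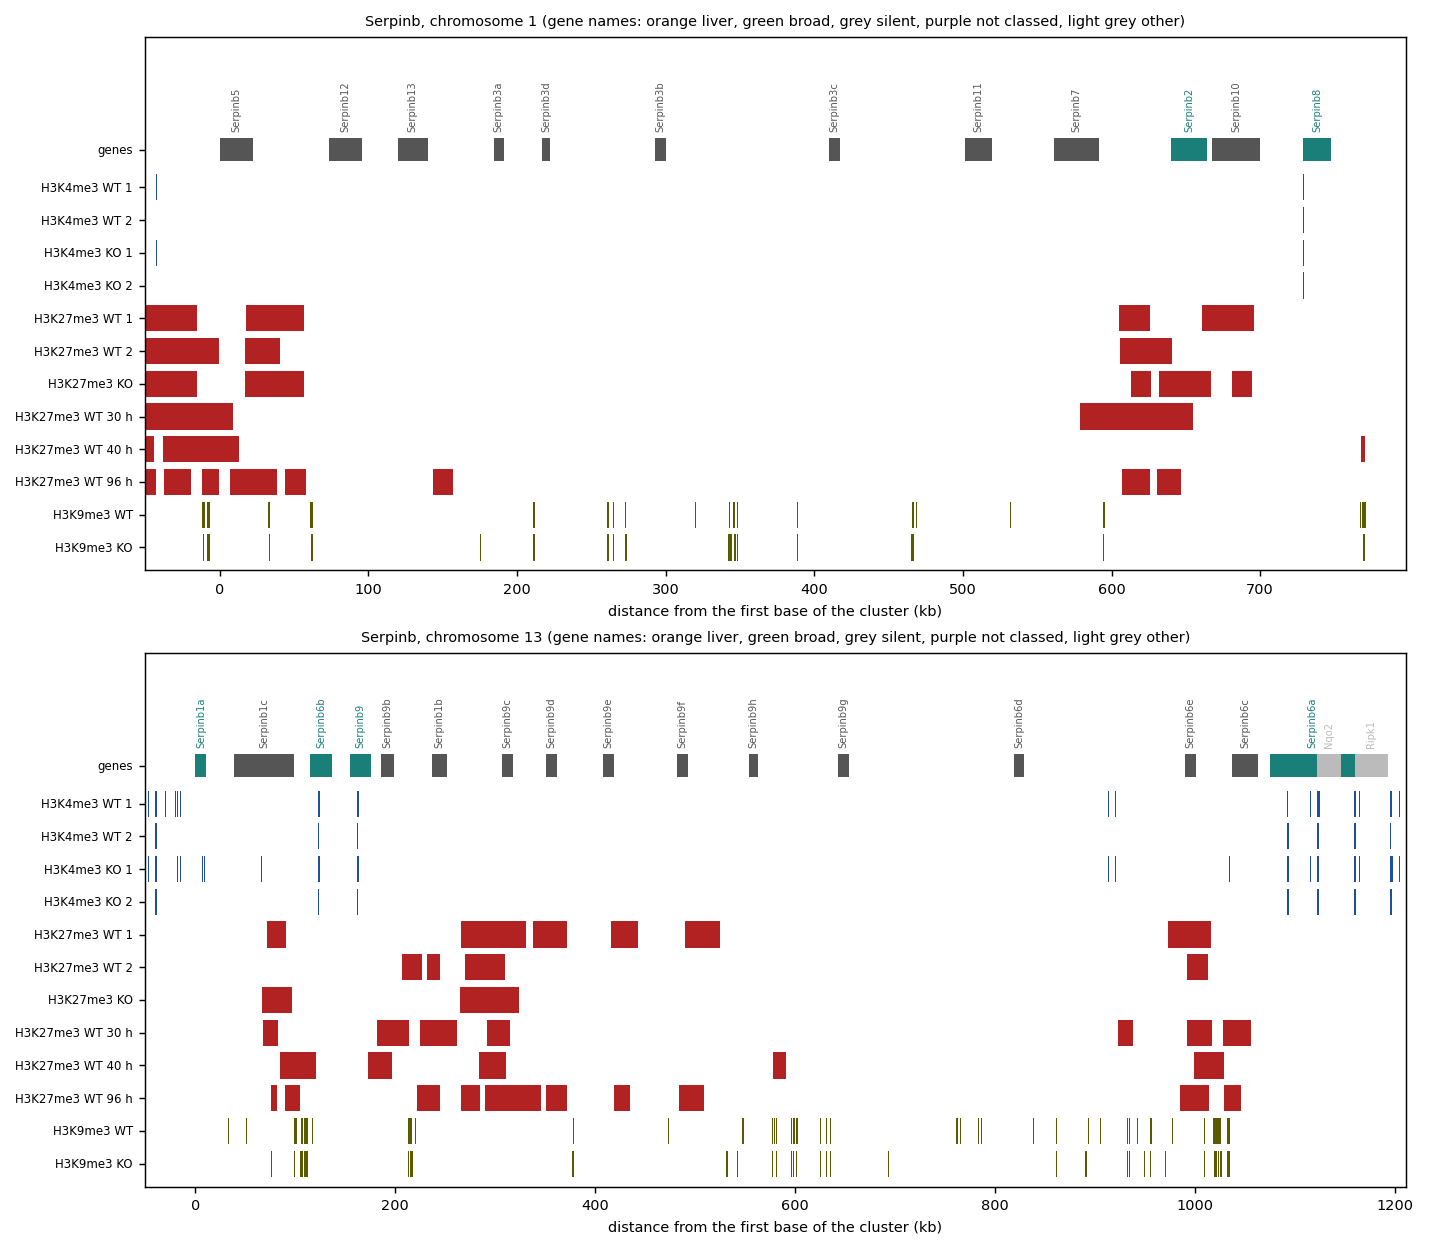
Called regions over the Serpinb clusters of chromosomes 1 and 13 and 50 kb either side, drawn in the same way (horizontal, kb from the first base of the cluster). H3K4me3 (blue) is limited to few genes, and the number and place of H3K27me3 islands (red) differ between the 6 libraries.

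H3K27me3 over the Serpinb clusters differed between the WT baseline libraries. On chromosome 13 it covered 19.2% and 8.1% of the cluster in WT, 7.67% in Uhrf1hepKO, and 15.1%, 11.2% and 19.6% at 30, 40 and 96 h. On chromosome 1 it covered 12.7% and 7.89% in WT, 13.8% in Uhrf1hepKO, and 11.3%, 1.72% and 12.6% at 30, 40 and 96 h. The Uhrf1hepKO value lay below both WT values on chromosome 13 and above both on chromosome 1, and the 40 h value on chromosome 1 was the lowest of that cluster. At 40 h all islands of the list covered 15.6% of chromosomes 1 to 19, the lowest of the 6 lists.

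At starts, H3K27me3 lay on 7 members in WT replicate 1, 7 in WT replicate 2 and 5 in Uhrf1hepKO, against 23.0%, 28.5% and 23.7% of all genes. No liver-expressed member was marked in any of the 6 libraries. In at least 1 library 14 members were marked, 10 silent and 4 broad or inducible, which is 22.6% of members against 33.9% of all genes. The serpins were thus marked at their starts less often than genes at large in each library, by count.

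Between genotypes, 1 member was marked in Uhrf1hepKO and in neither WT library, against 0.958% of all genes, and 1 was marked in both WT libraries and not in Uhrf1hepKO, against 1.39%. The former was Serpinb2, in a 35 kb island with a fold of 1.27. The latter was Serpinb6e, in islands of 43 kb and a fold of 1.32 in WT replicate 1 and 21 kb and 1.28 in WT replicate 2. Against WT replicate 2 alone, Serpinb2 and Serpinb9c were marked in Uhrf1hepKO only, and Serpinb1b, Serpinb5, Serpinb6e and Serpinh1 in WT only. Against WT replicate 1 alone, Serpinb2 was marked in Uhrf1hepKO only and Serpinb10, Serpinb6e and Serpinb9d in WT only. Shares of all genes were not computed for these single-replicate comparisons, so the names do not set serpins apart from genes at large. These comparisons cross rounds for WT replicate 2, and Serpinh1 and Serpinb5 were marked in all 4 round 3 libraries and in neither of the others.

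In regeneration, 7 members were marked at 0 h, 7 at 30 h, 7 at 40 h and 10 at 96 h, against 28.5%, 18.0%, 17.5% and 25.5% of all genes. The comparisons with 0 h share that library, and its control reads differed from those of the later times. Marked at 0 h and not at 30 h were Serpina16 and Serpine2, against 12.1% of all genes, and Serpinb2 and Serpinb9b were marked at 30 h and not at 0 h, against 1.64%. Serpina16 and Serpinb1b were marked at 0 h and not at 40 h, against 12.8%, and Serpinb1c and Serpinb9b the reverse, against 1.8%. Serpina16 was marked at 0 h and not at 96 h, against 5.74%. Serpinb1c, Serpinb9c, Serpinb9d and Serpini1 were marked at 96 h and not at 0 h, against 2.78%.

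With WT replicate 1 in place of the 0 h library, the counts marked at baseline and not later were 5, 4 and 2 at 30, 40 and 96 h, against 7.8%, 8.28% and 2.28% of all genes. The counts in the other direction were 5, 4 and 5, against 2.83%, 2.78% and 4.79%. That comparison crosses rounds. Serpina16 was among the baseline-only members with either library, since its start was marked in both WT replicates and at no later time. At 96 h the nearest island ended 1762 bp from its start.

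Serpine2 returned to the H3K27me3 lists after 30 h, in islands of 54 kb with a fold of 1.41 at 40 h and 12 kb with a fold of 2.27 at 96 h. Serpinh1 was marked at 0, 30, 40 and 96 h, with folds of 1.65, 1.56, 1.5 and 1.75, and not in WT replicate 1 or Uhrf1hepKO. Serpinb6e was marked at all 4 times with folds of 1.17 to 1.34. Serpinb5 was marked at all 4 times too, with 826 bp of its window at 0 and 96 h, where an island ended 175 bp short of the start, and the full 2001 bp at 30 and 40 h.

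All of these folds were low. Of all member starts marked by H3K27me3, only that of Serpine2 at 96 h lay in an island with a fold of 2 or more, so no count of marked members at baseline, 30 h or 40 h stands at that limit. The fold of the island at Serpinb2 in Uhrf1hepKO stood at the 2.47th percentile of the genes marked in that library, and that of Serpinb6e in WT replicate 1 at the 4.4th. Serpina1f stood between the 11.7th percentile, in Uhrf1hepKO, and the 68.4th, at 40 h.

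H3K9me3 covered little of most serpins. A gene was called covered where at least 10% of its body lay in broad peaks. Serpina3j, a silent member of the Serpina3 group, was the 1 member covered, with 10.3% in WT and 10.8% in Uhrf1hepKO. The shares of all genes covered were 3.16% in WT and 2.88% in Uhrf1hepKO. Serpina6, the gene of corticosteroid-binding globulin, lay under the limit with 4.94% in WT and 9.12% in Uhrf1hepKO, 1 library each. Other members under the limit went the other way, Serpinf2 with 4.2% in WT and 0.0% in Uhrf1hepKO, and Serpinb6b with 1.1% and 0.0%. In Serpina3j the longest peak was 1725 bp in WT, at chr12:104310062-104311786, and 1804 bp in Uhrf1hepKO, at folds of 3.78 and 3.42.

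No member went from covered in WT to free of broad peaks in Uhrf1hepKO, against 0.145% of all genes, and none the reverse, against 0.0677%. Only Serpina3j was covered in either genotype, so no other member could have counted. Serpina3j passed narrowly: with narrow peaks, with at least 20% of the body or with −log10 q of 5 or more it was not covered in either genotype. Over the clusters, broad peaks covered 2.14% of the Serpina cluster in WT and 2.45% in Uhrf1hepKO. On chromosome 1 they covered 2.03% and 2.05%, and on chromosome 13 4.39% and 3.54%. Genome-wide the shares were 2.3% and 1.98%.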

How the data were processed

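The deposited data are region lists of 12 ChIP libraries. The 3 input samples have no list here. Tools used by the authors were BWA, MACS2, SICER, Picard, Trimmomatic and FastQC 0.11.5, per the submitters' processing notes. The same notes name GRCm38.p4 and mm10. Further settings are unstated in these sources. Per the file headers and layout, the deposited peak lists hold a score, a fold enrichment (a ratio), and −log10 p and −log10 q values for each peak. The deposited island lists hold ChIP and control read counts, a p-value, a fold over control and an FDR for each island, called per library on 1000 bp windows with a gap of 4000 bp per the names of the deposited files. Reads outside regions were not used here, so depth beyond island reads is unknown.

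Islands with an FDR of at most 0.01 were used and all peaks were kept. Genes came from RefSeq of GRCm38.p6, of which mm10 is the same primary assembly. Of all 20665 genes, 16457 had a start in the promoter table, and for the rest the gene end with more H3K4me3 was taken, or both ends. Gains and losses were counted as marked in all libraries of 1 genotype and none of the other. Promoters were the 300 bases from 250 before to 50 after each RefSeq start. Overlap code was tested on simulated data for all 20665 genes, and 200 of 200 planted calls were recovered. Python 3.11.15, pandas 2.3.3, numpy 2.4.6 and Biopython 1.88 were used.

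The members and gene lists were chosen with earlier results of these data known. Named genes were those whose call differed between genotypes or times, those with both marks or H3K9me3 cover, the 5 highest H3K4me3 folds in WT replicate 1 in each list, exceptions to a list's majority, and cluster ends. The other liver-expressed members described, Serpina12 and the genes of the closing section were named after their values were seen. The values of 1 member are not reported here, though it is included in the counts. Serpina3h and Serpinb4 stood in the lists but are not protein-coding members here. Alternatives covered the window, the gene end, fold, q and FDR limits, cluster gaps and left-out replicates.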

Additional observations from a re-analysis of the deposited data

How the results depend on the processing

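Of 190 values recomputed under another setting, 134 stayed within a limit and 56 moved. For counts the limit was 1.5 times. For gene-body shares and WT baseline cluster coverage it was the standard deviation of the 2 replicates. For cluster coverage from 1 library it was a binomial interval that took each kb of the cluster as a trial, which is no spread of replicates. A minimum fold of 2 moved all 30 H3K27me3 values it was applied to: every count of member starts and every cluster coverage became 0, except that at 96 h 1 member (Serpine2) was marked, 1 was marked at 96 h and not at 0 h, and 1.0% of the Serpina cluster was covered. Since nearly all islands over serpins had lower folds, that follows from the limit itself. Counts of H3K4me3 gained in Uhrf1hepKO became 1 with −log10 q of 5 or more (Serpina3i), ranged from 0 to 1 when 1 replicate was left out (1 without WT replicate 1, again Serpina3i), and losses likewise ranged from 0 to 1 (1 without WT replicate 2, Serpina9). H3K27me3 gains were 2 with a 2 kb window and 0 at either gene end or at the end with more H3K4me3, where WT replicate 1 had 11 marked members in place of 7. With 1 WT replicate left out, H3K27me3 gains ranged from 1 to 2 and losses from 3 to 4, with no share of all genes computed. Marked at 0 h and not at 96 h became 0 with a 2 kb window, which reaches the island 1762 bp from Serpina16, and 0 at either gene end, where marked at 40 h and not at 0 h became 4. WT replicate 1 in place of 0 h gave 5 and 5 at 30 h, 4 and 4 at 40 h, and 2 marked before and not at 96 h. H3K9me3 cover fell to 0 members in WT and Uhrf1hepKO under 20% of the body, narrow peaks or −log10 q of 5 or more. Both marks in WT became 2 with WT replicate 2. Except where stated, the cause was not tested. With no FDR limit, a cluster gap of 200 kb, or 200 bp of overlap, no value moved. The 200 kb gap gave clusters with the same bounds, so its 15 values could not move and show nothing about stability. Those 15 are counted among the 134. All islands of WT replicate 1 and Uhrf1hepKO passed the FDR limit, so dropping it could not change values from those libraries alone. The q limit and left-out replicates for gene bodies, and left-out WT replicates for cluster coverage, were added after seeing the data. Either of 2 replicates always lies within their standard deviation, so these left-out replicates could not move a value and show nothing about its stability. They are counted among the 134.

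No paired analysis was possible because the results come from counts and no test was made; the labels put the second H3K4me3 replicates of both genotypes in round 2, name no round for the first, and genotype differences are given within each replicate. The number of reads behind each peak list is not given, so a start without a region shows only that none was called there. One library stands behind each regeneration time, H3K27me3 in Uhrf1hepKO and each H3K9me3 value.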

Other observations

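Serpin pseudogenes of the Serpina cluster, which are not protein-coding members, differed in H3K4me3. Serpina4-ps1, a transcribed pseudogene related to the kallistatin gene, had 4974 and 2604 bp of H3K4me3 over its body and 1 kb either side in WT, and 4287 and 2545 bp in Uhrf1hepKO, with folds of 12.1 to 21.8. Serpina3h, also transcribed, had 564 and 346 bp in WT and 322 and 465 bp in Uhrf1hepKO. Serpina3d-ps, Serpina3e-ps and Serpina3l-ps, annotated as pseudogenes with no transcript, had 0 bp in all 4 libraries.

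The longest H3K4me3 peaks of the Serpina cluster with no annotated gene within 1 kb lay between Serpina1d and Serpina1a. The pseudogene Gm8893, at 103817771 to 103822261, lies close to them on the low-coordinate side. Whether reads of this stretch also fit other places was not tested. In WT replicate 1 a peak of 3058 bp with a fold of 15.5 at chr12:103824120-103827177 was followed by one of 1231 bp with a fold of 18.4. In WT replicate 2 the peak of 2175 bp there had a fold of 31.3, and in Uhrf1hepKO replicate 2 a peak of 2904 bp had a fold of 37.0. In Uhrf1hepKO replicate 1 the peaks of 2995 and 1423 bp had folds of 16.3 each. These folds were in the range of the liver-expressed gene starts of the same libraries.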
